A study of Mus musculus with 2 samples.

Results

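The regions described here are the strong DNase-seq peaks of mouse midbrain that were listed in replicate 1 and that no replicate 2 peak overlapped. They were selected on measured values: on chromosomes 1 to 19, a replicate 1 peak entered when its deposited signal was 71 or more and no replicate 2 peak shared even 1 bp with it. This gave 4268 peaks among 30915 strong replicate 1 peaks (13.8%) and among 300618 replicate 1 peaks in all, of which 69.3% lacked an overlapping replicate 2 peak. The other 26647 strong peaks are called strong shared peaks. Absence of overlap is therefore the way these peaks were chosen and not a finding about them, and everything said below on replicate 2 at these peaks is a description without a test.

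DNase I cuts DNA where nucleosomes are displaced, so peaks of cutting mark promoters, enhancers and insulators in use in a tissue. Promoters of broadly expressed genes are mostly rich in CpG and carry sites such as the GC box of SP and KLF factors and the CCAAT box of NF-Y. Enhancers of neural progenitors and young neurons often carry E-boxes bound by proneural basic helix-loop-helix factors and sites for SOX and homeodomain factors, and CTCF marks insulators.

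Both libraries came from midbrain of B6NCrl embryos at 11.5 days of development, with males and females pooled in each. They formed 1 group of 2 biological replicates, without a treatment, an input or a control tissue. The libraries were run on different pairs of Illumina instruments, so an instrument effect and a replicate effect cannot be told apart. Read depth is unknown, because the lists hold no read totals.

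After removal of repeated coordinates, replicate 2 had more peaks on these chromosomes than replicate 1, at 447681 against 300618, and the median signal was 8 over the whole replicate 2 list and 18 over that of replicate 1, each on its own scale. Nearly all peaks of both lists were 150 bp wide with starts on a shared 20 bp grid, so the distance between 2 separate peaks could take the values 10, 30, 50 bp and so on. The normalization of the signal is not stated, so a signal in one replicate was not read as higher or lower than one in the other.

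The peaks fell into 4 classes by what replicate 2 held around them. In 3386 peaks a replicate 2 hotspot, a broader region of raised cutting, overlapped the peak. A replicate 2 peak also lay within 500 bp of the edge of each. These are called displaced, which does not say that the nearby peak is the same site shifted. In 1608 of them the nearest replicate 2 peak overlapped a different replicate 1 peak. In 222 peaks a replicate 2 peak lay within 500 bp but no hotspot overlapped; these are called edge peaks. A hotspot without a nearby peak was found at 18 peaks. The remaining 642 peaks had neither and are called absent, which refers only to the deposited replicate 2 lists. Absent peaks were 15% of the replicate-1-only peaks and 2.08% of all strong replicate 1 peaks.

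Sequences of 3 displaced promoter peaks are given first because the 2 replicates placed their peaks side by side there. They are those among the 10 strongest whose neighbouring replicate 2 peak lay within 30 bp and which held the most CCAAT letters, a choice made after their values were seen. Each is 300 bp of the plus strand of GRCm38, the assembly also called mm10, with the replicate 1 peak in capitals and the flank that holds most of the replicate 2 peak in lower case; the window leaves out the outer end of that peak. The windows are chr10:81182796-81183095 at Dapk3, chr3:95015366-95015665 at Zfp687 and chr4:151861976-151862275 at Camta1.
Dapk3: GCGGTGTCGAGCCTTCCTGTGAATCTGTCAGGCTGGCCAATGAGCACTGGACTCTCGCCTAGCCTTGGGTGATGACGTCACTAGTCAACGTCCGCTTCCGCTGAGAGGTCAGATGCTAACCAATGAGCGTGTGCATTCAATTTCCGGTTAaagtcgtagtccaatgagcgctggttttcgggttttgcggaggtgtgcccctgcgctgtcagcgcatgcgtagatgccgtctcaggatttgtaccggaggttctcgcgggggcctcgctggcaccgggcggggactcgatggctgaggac
Zfp687: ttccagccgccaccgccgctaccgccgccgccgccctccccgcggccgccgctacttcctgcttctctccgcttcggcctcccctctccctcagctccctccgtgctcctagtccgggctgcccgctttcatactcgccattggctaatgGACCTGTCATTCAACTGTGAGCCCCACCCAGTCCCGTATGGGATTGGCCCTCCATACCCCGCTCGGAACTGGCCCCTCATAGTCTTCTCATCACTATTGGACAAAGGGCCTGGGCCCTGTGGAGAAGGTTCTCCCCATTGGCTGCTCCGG
Camta1: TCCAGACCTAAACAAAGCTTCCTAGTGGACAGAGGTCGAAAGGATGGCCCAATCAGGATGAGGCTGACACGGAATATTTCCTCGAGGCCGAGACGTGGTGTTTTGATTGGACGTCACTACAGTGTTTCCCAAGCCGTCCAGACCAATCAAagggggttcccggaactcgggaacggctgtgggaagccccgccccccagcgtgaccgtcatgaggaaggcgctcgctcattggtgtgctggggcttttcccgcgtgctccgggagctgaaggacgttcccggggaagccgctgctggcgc
Counted on both strands, the letters CCAAT occurred 2 times in the capitals at Dapk3, 3 times at Zfp687 and 3 times at Camta1. In each window they also occurred 1 further time outside the replicate 1 peak. The capitals were less GC-rich than the flank at all 3, at 54.7% against 63.3%, 59.3% against 70% and 50.7% against 69.3%. Among the 10 strongest, Fchsd2 and Mtmr4 also had the replicate 2 peak within 30 bp but are not shown. Fchsd2 had 64% against 75.3%, and Mtmr4 went the other way, at 65.3% against 64%. CCAAT holds A and T, so the GC difference is not independent of the choice by these letters.

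The other sequences are of absent peaks, each 150 bp of the plus strand. The strongest of them, at chr11:112982616-112982765 with Sox9 as nearest gene, is followed by the 3 strongest that held both forms of the proneural E-box, near Lhx1 (chr11:84574976-84575125), Casq2 (chr3:102049336-102049485) and Myt1l (chr12:29336176-29336325). These 3 were chosen after their letters were searched. Capitals mark the E-box letters CAGCTG and also CAGATG, read on both strands, and SOX letters ACAATG, of which these 4 peaks held none.
Sox9: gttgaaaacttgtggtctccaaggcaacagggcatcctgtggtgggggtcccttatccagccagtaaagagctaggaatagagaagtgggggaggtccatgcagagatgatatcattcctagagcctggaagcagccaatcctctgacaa
Lhx1: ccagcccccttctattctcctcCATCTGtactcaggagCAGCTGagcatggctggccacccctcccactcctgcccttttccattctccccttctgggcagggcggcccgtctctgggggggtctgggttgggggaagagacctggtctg
Casq2: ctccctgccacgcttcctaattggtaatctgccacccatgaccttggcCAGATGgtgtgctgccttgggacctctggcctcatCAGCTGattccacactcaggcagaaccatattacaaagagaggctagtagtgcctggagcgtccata
Myt1l: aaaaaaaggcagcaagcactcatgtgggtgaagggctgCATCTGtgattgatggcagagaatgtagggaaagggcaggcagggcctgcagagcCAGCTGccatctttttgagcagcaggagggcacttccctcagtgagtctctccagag
The Sox9 peak held neither E-box form, and each of the other 3 held 1 of each. Both forms together occurred in 53 of the 642 absent peaks.

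A replicate 2 peak lay close to most of these peaks without overlap. The gap to the nearest replicate 2 peak had a median of 90 bp, with quartiles of 30 and 230 bp, and ranged from 10 to 512830 bp. It was at most 100 bp in 2192 peaks (51.4%), between 100 and 500 bp in 1416 (33.2%) and over 20 kb in 55 (1.29%). A replicate 2 peak lay within 500 bp of 84.5% and within 150 bp of 67.2%. A replicate 2 hotspot overlapped 3404 of the peaks, or 79.8%.

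**Figure D1:**
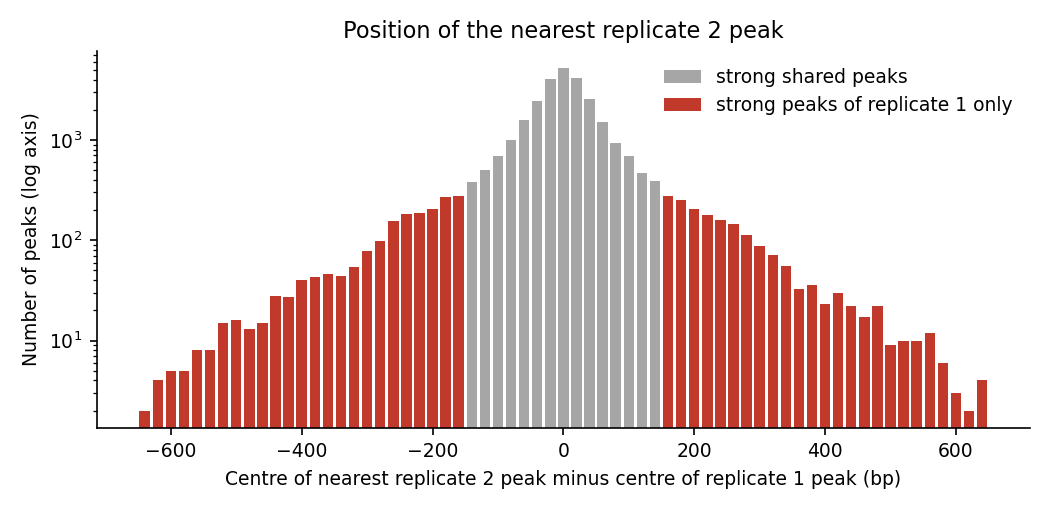
Number of strong replicate 1 peaks (log axis) by the distance in bp from their centre to the centre of the nearest replicate 2 peak, with shared peaks in grey and replicate-1-only peaks in red, out to 500 bp between edges. Where several replicate 2 peaks overlap a shared peak, the one of highest signal is used, which need not have the nearest centre. At the boundary between both colours the counts go from 380 and 393 shared peaks with centres 140 bp apart, on either side, to 276 and 275 replicate-1-only peaks with centres 160 bp apart.

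Values just on either side of the rule are given here once. With a largest overlap of 10 bp with any replicate 2 peak there were 660 strong shared peaks, 43.3% of them at promoters, with a median signal of 92. With a 10 bp gap there were 551 peaks, 44.5% at promoters, with a median signal of 90. On the signal side, 23.2% of the 906 peaks with a signal of 70 had no overlap, against 20.5% of the 882 peaks with a signal of 71. Promoters made up 23.3% and 33.1% of those without overlap. That promoter share varied from value to value, at 27.7% and 26% for signals of 68 and 69 and 21.7% and 30.2% for 72 and 73. Among strong shared peaks, 5314 (19.9%) had exactly the coordinates of a replicate 2 peak.

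The share without overlap fell with the signal throughout the list. Among replicate 1 peaks with a signal of 10 or less, 95.4% had no overlapping replicate 2 peak and 89.1% would count as absent. Just above the threshold, at 71 to 80, the shares were 19.7% and 4.58%. Above 130, 98 of 2419 peaks had no overlap (4.05%), and none of these was absent. Absent peaks had a median signal of 79 and a highest value of 127, whereas displaced peaks had a median of 88 and reached 142.

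**Figure D2:**
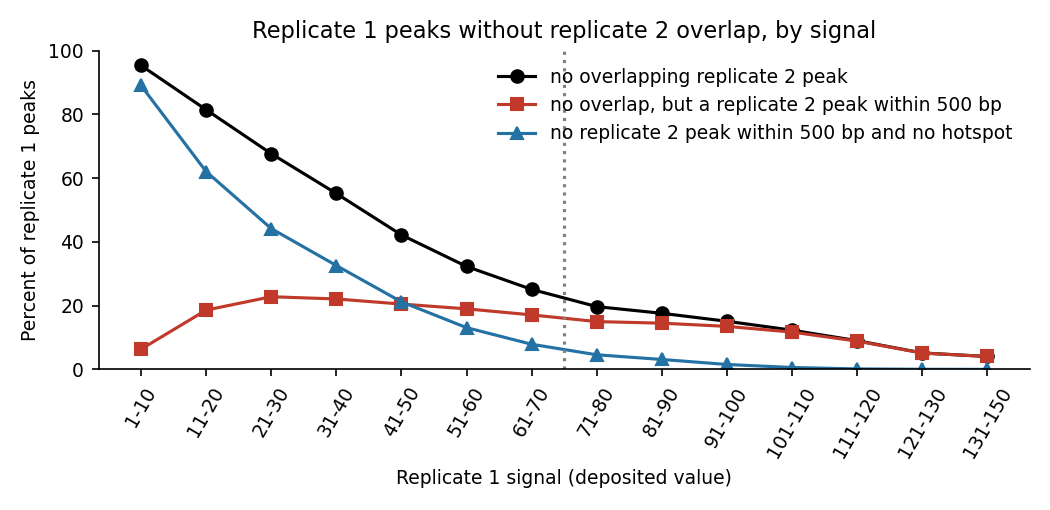
Percent of replicate 1 peaks on chromosomes 1 to 19 without an overlapping replicate 2 peak (black), of those without overlap but with a replicate 2 peak within 500 bp (red), and without either a peak within 500 bp or a hotspot (blue), by deposited replicate 1 signal; the dotted line is the threshold of 71. Above the line the red and black curves run close together, and the blue curve falls from 4.58% to 0.

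Displaced peaks were mainly promoters and absent peaks were almost wholly distal. The midpoint of a peak set its class, which was promoter up to 500 bp from any transcription start site (TSS) of a protein-coding gene, and otherwise exon, intron or intergenic. Of all 4268 peaks, 41.6% were promoters, 3.05% exonic, 25.5% intronic and 29.9% intergenic, against a promoter share of 43.3% in strong shared peaks and 8.12% in all replicate 1 peaks. The promoter share was 52.1% in displaced peaks (1764 peaks), 1.8% in edge peaks and 0.935% in absent peaks (6 peaks). Of the absent peaks, 47.7% were intronic, 49.4% intergenic and 2.02% exonic, and 32.6% lay over 100 kb from every protein-coding TSS. The median distance to a TSS was 461 bp for displaced and 48105 bp for absent peaks.

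**Figure D3:**
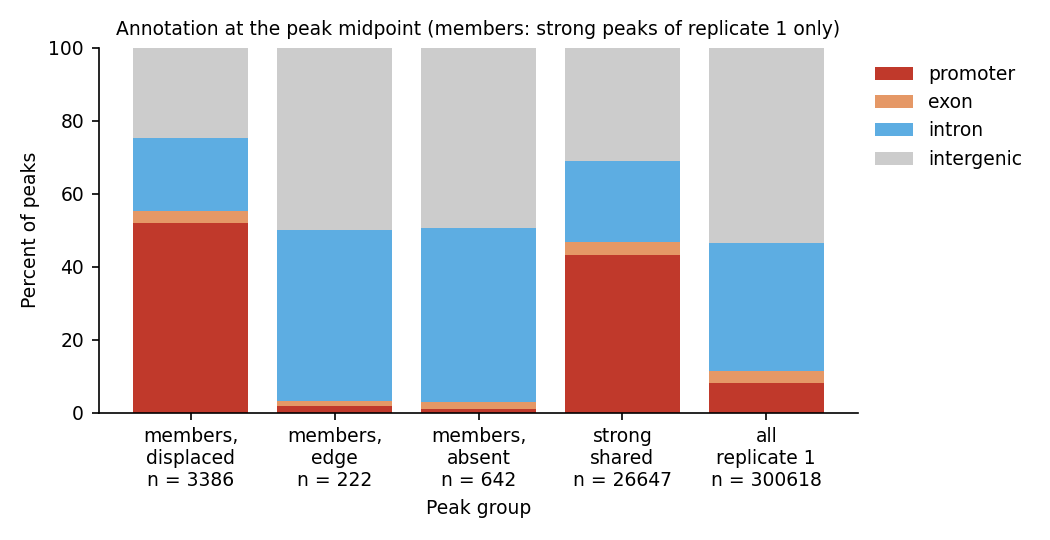
Percent of peaks at promoters, exons, introns and intergenic positions in 3 classes of replicate-1-only peaks, in strong shared peaks and in all replicate 1 peaks, with the number of peaks under each bar. Promoters make up 52.1% of displaced peaks and 0.935% of absent peaks.

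Base composition followed the same division. Median GC content of the 150 bp was 58% over all 4268 peaks, 60.7% in displaced peaks, 52% in absent peaks, 60.7% in strong shared peaks and 48% in all replicate 1 peaks. Displaced promoter peaks had a median of 65.3%, below the 68% of strong shared promoter peaks. The CpG ratio, observed over expected from base content, was 0.6 or more in 76.8% of displaced promoter peaks, 87.5% of strong shared promoter peaks and 7.79% of absent peaks. Masked repeats made up a mean of 6.95% of these peaks and 17.2% of all replicate 1 peaks. Peaks that were more than 50% repeat were 0.961% of them and 11.3% of all.

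The replicate 1 hotspot around the peak was wide at displaced peaks, with a median of 1270 bp, against 546 bp at absent and 836 bp at strong shared peaks. Replicate 2 hotspots covered the whole peak at 95.4% of displaced peaks, and 91.3% had a hotspot at the ceiling of the −log10 q scale, which was 100. A further replicate 1 peak lay within 500 bp of 84.3% of displaced peaks, 56.9% of strong shared and 35.4% of absent peaks. Displaced peaks thus lay in broad accessible stretches that held several peaks, and absent peaks mostly stood alone.

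The nearest replicate 2 peak of a displaced peak was of 2 kinds. In 1608 (47.5%) it overlapped a different replicate 1 peak, with a median gap of 110 bp and a median replicate 2 signal of 71. In 1778 (52.5%) it overlapped no replicate 1 peak, with a median gap of 50 bp and a median signal of 52. Replicate 1 signal was the same in both kinds, with a median of 88. The replicate 2 peak beside an absent peak, a median of 4740 bp away, had a median signal of 16.

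All of the 10 strongest peaks were displaced promoter peaks. Their signals ran from 140 to 142, their gaps from 10 to 230 bp and the neighbouring replicate 2 signals from 56 to 91, and each lay in a replicate 2 hotspot at the ceiling of 100. At Cic, a transcriptional repressor, the peak at chr7:25267916-25268065 had a signal of 142 and lay 287 bp downstream of the TSS, with the replicate 2 peak of 72 a further 110 bp on. At Fchsd2, which encodes an F-BAR membrane protein, the peak with 142 lay 402 bp upstream of the TSS and 10 bp from a replicate 2 peak of 83. At Dapk3, a serine/threonine kinase, the values were 142 and 88, again with a gap of 10 bp.

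The peak at Mtmr4, a lipid phosphatase, had 142 beside a replicate 2 peak of 56, the lowest of the 10. At Gsk3b, a kinase of the Wnt pathway, the values were 142 and 91, with 210 bp between the peaks. The rest were Hsph1 (a chaperone of the heat shock family), Mgea5 (the enzyme that removes O-GlcNAc), Zfp687 (a zinc finger protein), Ensa (a mitotic inhibitor of protein phosphatase) and Camta1 (a calmodulin-binding transcription activator). The letters CCAAT were present in 7 of the 10, all but Fchsd2, Hsph1 and Mgea5.

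**Figure D4:**
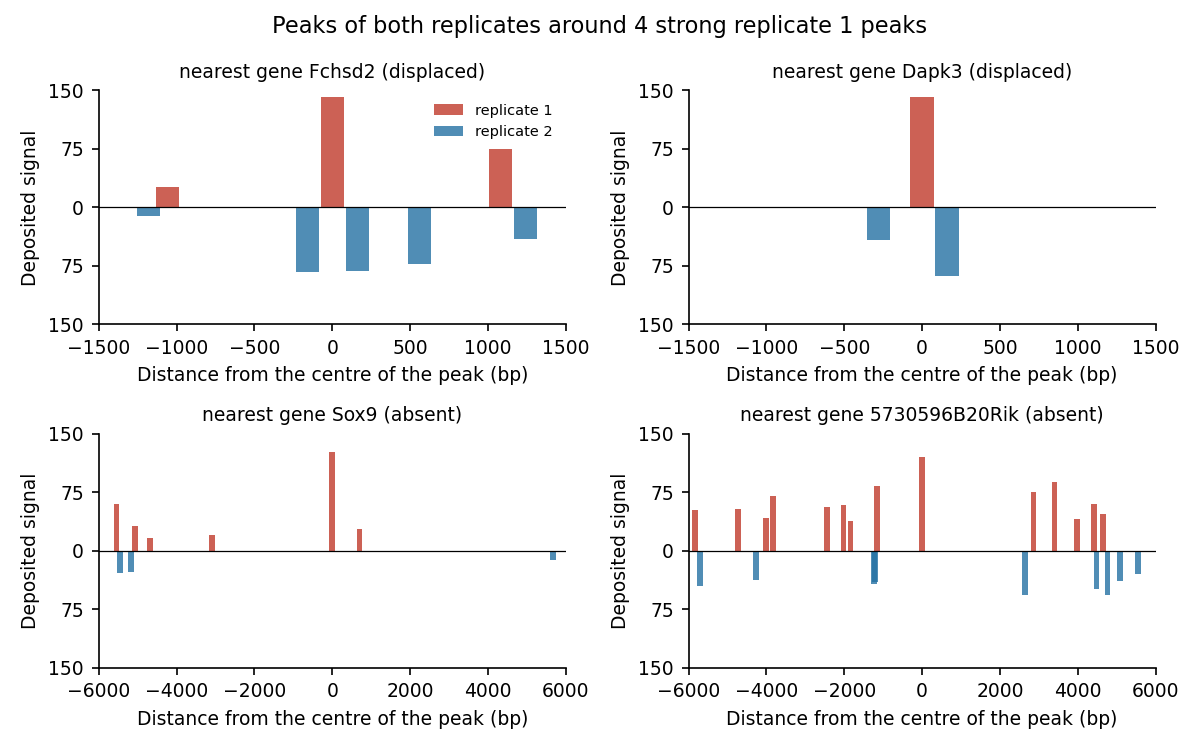
Deposited signal of replicate 1 peaks (red, upward) and replicate 2 peaks (blue, downward) by distance in bp from the centre of 4 strong replicate 1 peaks: the displaced promoter peaks of Fchsd2 and Dapk3 (142 each) and the absent peaks nearest to Sox9 (127) and 5730596B20Rik (120). At both promoters a replicate 2 peak starts 10 bp from the central peak, whereas at the other 2 the nearest one is 5030 and 1070 bp away.

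The strongest peaks outside promoters were displaced as well. In exons they lay near Brd2, a bromodomain reader of acetylated histones, with a signal of 135 and a replicate 2 peak of 112 at a gap of 10 bp, near Rap2b, a small GTPase, with 129 and 63, and near Cdh2, the neural cadherin, with 121 and 67. In introns they were nearest to Dlg4, a postsynaptic scaffold (136 and 95), Src, a tyrosine kinase (135 and 64), and Iqsec1, an exchange factor for ARF GTPases (131 and 49). Between genes they were nearest to Foxo3, a forkhead factor (135 and 90), Sp1, the GC box factor (135 and 80), and Ppp2r3d (134 and 85). The gaps of these 9 peaks were 10 to 250 bp. In the order given, those in exons lay 1022, 2153 and 675 bp from the nearest protein-coding TSS. Those between genes lay 1016, 602 and 1077 bp from it, and those in introns 2572, 7946 and 27532 bp. The exonic and intergenic ones were thus close to promoters.

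Displaced promoter peaks lay farther from the start site than shared ones by median distance. Their median distance to the TSS was 160 bp, against 55 bp for the 11550 strong shared promoter peaks. Of the displaced promoter peaks, 52.8% were upstream, and their median position was -8 bp. Of the strong shared ones 70.5% were upstream, with a median of -31 bp. The quartiles of position, negative upstream, were -88.2 and 231 bp for displaced and -77 and 8 bp for strong shared promoter peaks. Distance was not measured for each side separately. The replicate 2 peak nearest to a displaced promoter peak was on its downstream side in 56% and was itself a median of 179 bp from the TSS. From 71 to 120, in steps of 10 signal units, the median distances were 237, 219, 192, 85 and 68 bp for displaced and 118, 65, 55, 40 and 40 bp for shared promoter peaks. Above 120 both were longer again, at 97 and 60 bp.

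The GC box, searched as GGGCGG on both strands, was in 44.4% of displaced promoter peaks and 61.2% of strong shared promoter peaks. Letters for NRF1 (GCGCATGCG) were in 1.02% and 3.35%, for the cyclic AMP response element (TGACGTCA) in 1.25% and 3.43%, and for ETS factors (CCGGAAG) in 9.13% and 14.7%. All 4 were thus less frequent in the displaced set, which also had lower signals, with a median of 92 against 116, and a lower GC content. The part of signal and GC content in these differences was not tested.

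CCAAT, the NF-Y letters on both strands, went the other way in the strongest peaks. At a signal of 71 to 80 it was in 13.6% of 469 displaced promoter peaks and 13.5% of 1017 strong shared promoter peaks. Above 120 it was in 58.3% of 216 displaced promoter peaks (126 peaks, 95% Wilson interval 51.7% to 64.7%, counting error only) and in 41.8% of 4761 shared ones. In the 4 steps of 10 signal units between these, the displaced promoter peaks had 16.8%, 13.8%, 25.8% and 33.2% and the shared ones 14%, 17.2%, 18.2% and 25.5%, so that the displaced set was lower in 1 step, at 91 to 100. This split by signal was made after the overall shares of 23.5% and 28.4% had been seen.

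A start site with such a peak usually had other peaks as well. Of 20720 protein-coding genes, 1845 (8.9%) had a replicate-1-only peak within 500 bp of a TSS, while 51.9% had a strong shared peak there. Of the 1845 genes, 1347 had a strong shared peak too and 1835 had some replicate 2 peak within 500 bp of a TSS. The 10 others, named because the count is small, were 4933407L21Rik, Ccdc166, Cdh11, Cln8, Lrrc43, Pcsk4, Sema3g, Sgca, Tmem17 and Zfp282. Their strongest replicate-1-only peak had signals from 72 at Cdh11, a mesenchymal cadherin, to 121 at Cln8, which encodes a protein of the endoplasmic reticulum. Only those of 4933407L21Rik, Lrrc43, Sema3g and Sgca were absent peaks. At the other genes, Cln8 and Cdh11 among them, that peak had a replicate 2 hotspot or a replicate 2 peak within 500 bp of its edge.

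Among 24 midbrain and isthmus patterning genes, 4 had a replicate-1-only peak at a TSS and no strong shared peak there, as did 498 (2.4%) of all 20720 protein-coding genes. They were Cnpy1, an FGF signalling component of the isthmus (replicate 1 signal 112, highest replicate 2 signal at a TSS 66), and the transcription factors Pax3 (104 and 61), Otx1 (99 and 76) and Pax7 (91 and 75). All 24 genes of the list had a replicate 2 peak at a TSS. At each of these 4 genes replicate 2 thus listed a peak within 500 bp of a TSS, without overlap with the strong replicate 1 peak.

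Of 25 neural progenitor genes, 6 had a replicate-1-only peak at a TSS, with or without a strong shared peak there. Among all protein-coding genes 8.9% did. The 6 were led by the transcription factors Pax6 (replicate 1 signal 128, highest replicate 2 signal at a TSS 71), Neurog1 (122 and 67) and Zic2 (106 and 80). Of 25 neuronal differentiation genes, 4 had one, led by the neurofilament genes Nefm (117 and 61) and Nefl (115 and 64) and by Map2, a dendritic microtubule protein (90 and 91). Strong shared peaks were at a TSS of 23 of the progenitor and 19 of the neuronal genes, against 51.9% of all protein-coding genes. Neurog1, Zic2, Nefm and Nefl had no strong shared peak at a TSS, and Pax6 and Map2 had one.

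Lists of broadly expressed genes had counts of the same order, again beside 8.9% of all protein-coding genes. Most genes of these lists had a strong shared peak at a TSS, against 51.9% of all protein-coding genes. These were 31 of 34 chromatin, 30 of 31 ribosomal, 21 of 22 translation and folding, 24 of 26 splicing and 27 of 27 cell cycle genes. Replicate-1-only peaks were at 9 of 34 chromatin regulators, led by Cic (142), Setd2, a histone methyltransferase (130), and Cbx5, a heterochromatin protein (128), and all 9 also had a strong shared peak. Ribosomal protein genes had 5 of 31, led by Rpl30 (125), Rps23 (123) and Rpl32 (113). Translation and folding genes had 4 of 22, led by the chaperone Hspa5 (139), then Eif3a (97) and Dnajb1 (81). Splicing genes had 4 of 26, with Hnrnpa1 (128), Srsf7 (125) and Srsf6 (94), and cell cycle genes had 3 of 27, namely Ccne2 (110), Aurka (108) and Mcm7 (82).

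Markers of other cell types that dissected midbrain could hold were counted in the same way. No such peak was at a TSS of 15 erythroid, 18 endothelial, 16 microglial or 12 surface epithelial genes, in which strong shared peaks were at 1, 3, 4 and 0. Of 20 mesenchyme and neural crest genes, 2 had one: Snai2 (90) and Foxc2 (83), with highest replicate 2 signals at a TSS of 48 and 39. Against the 8.9% of all protein-coding genes, none of these counts is given a test, and the lists were not chosen without knowledge of the data.

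The genes with the most replicate-1-only peaks around them, 8 each, were Auts2, Gse1, Irx3, Pou3f3 and Zfp608. For Pou3f3, a neural POU factor, all 8 were displaced, with gaps of 10 to 210 bp. For Irx3, an Iroquois homeodomain factor, 7 were displaced and 1 was an edge peak. For Zfp608, a zinc finger gene, 7 were displaced and 1 was absent. Auts2, a neurodevelopmental gene, had 5 displaced and 3 absent peaks, up to 589468 bp from its TSS, and Gse1 had 4 displaced, 2 edge and 2 absent. These genes had between 17 (Irx3) and 45 (Zfp608) strong replicate 1 peaks nearest to them in all.

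Of the 10 strongest absent peaks, 6 were intergenic, 3 intronic and 1 exonic, with signals of 107 to 127. They lay from 2884 bp (Meis3) to 266105 bp (Slc39a11) from the nearest protein-coding TSS. The first, with 127, lay 200467 bp downstream of the TSS of Sox9, a SOX factor of neural progenitors and glia, in a replicate 1 hotspot of 1486 bp. The nearest replicate 2 peak, with 27, was 5030 bp away, and the nearest replicate 2 hotspot was 4837 bp away. The TSS of Sox9 itself had a strong shared peak of 131 and a replicate-1-only peak of 92. The absent peak nearest to Wdr61, a subunit of the PAF complex, had 119 and a replicate 2 peak of 6 at 3830 bp.

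Those nearest to Mad2l1, a spindle checkpoint gene, and Gm26897 had 115 and 113, at 136079 and 138313 bp from the TSS. The peak nearest to Meis3, a TALE homeodomain factor, had 113 and lay 2884 bp upstream of its TSS, with a replicate 2 peak of 60 at 2850 bp. Intronic or intergenic peaks nearest to Slc39a11, a zinc transporter, and Cacna2d3, a calcium channel subunit, both had 110, and those nearest to Fam241a and Prag1 had 108 and 107. In replicate 1 all 10 lay in hotspots at the ceiling of 100, as did 99.9% of all strong replicate 1 peaks.

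The 3 peaks with the smallest gap by the fixed order of ties, all at 10 bp, lay at the promoters of Tram1 (109, beside a replicate 2 peak of 62) and Fam135a (128 and 90) and between genes nearest to Hs6st1 (81 and 25). The largest gaps were 512830, 412270 and 391990 bp, at absent intergenic peaks nearest to Kif2b, Amy2a5 and Edem1 with signals of 80, 82 and 77. These 3 lay 557533, 997306 and 714517 bp from the nearest protein-coding TSS.

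Absent peaks were spread over many genes. They had 531 nearest genes (2.56% of protein-coding genes), of which 446 had a single absent peak and 20 had 3 or 4. The 6 genes with 4, named because of that count, were BC052040, Ccdc182, Celf4, Glra1, Nav2 and Prex1. Glra1 encodes a glycine receptor subunit, Celf4 a neuronal RNA-binding protein and Nav2 a neuron navigator protein. Around Glra1 all 4 were intergenic, with signals of 71 to 100, and around Celf4 all 4 were intronic, with 73 to 76.

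Of 295 listed genes on these chromosomes, 13 (4.41%) were nearest to an absent peak, against 2.56% of all protein-coding genes. They included the patterning genes En1, Pax2, Pax5, Pax7 and Barhl1, the progenitor genes Sox2, Sox9 and Jag1, and the neuronal genes Map2 and Ebf1. The others were the chromatin gene Chd4, the splicing gene Ptbp2 and the endothelial gene Erg. Pax5, Map2, Ebf1 and Ptbp2 had 2 each and the other 9 had 1. Listed patterning genes were thus nearest to 6 absent peaks, 15 displaced peaks outside promoters and 94 strong shared peaks outside promoters.

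Some absent peaks lay in runs. With neighbours joined over up to 50 kb, 39 absent peaks formed 12 runs of at least 3. In the run near Sfrp1, a secreted Wnt modulator, at chr8:23392316-23394585, the 3 absent peaks had signals of 77 to 85 and were the only replicate 1 peaks within the 2.3 kb, which held no replicate 2 peak. The run near Rhbg, an ammonium transporter gene, at chr3:88228116-88231625, likewise held 3 replicate 1 peaks, with signals of 88 to 96, and no replicate 2 peak over 3.5 kb. Absent peaks have no replicate 2 peak within 500 bp by definition. Much of these short spans was therefore empty by the choice of peaks, which is not a finding about them. The run near Glra1 spanned 47.9 kb with 5 replicate 1 peaks and no replicate 2 peak. The other 9 runs held between 1 and 30 replicate 2 peaks. A strong shared peak lay within 10 kb of 189 of the 642 absent peaks, or 29.4%.

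Runs also lay in the Hoxa and Hoxb clusters, whose genes pattern the hindbrain and trunk, and the clusters were therefore counted after this was seen. In the 4 Hox clusters, 15 of 46 strong replicate 1 peaks had no replicate 2 overlap, against 13.8% of strong peaks on all the chromosomes used. Of the 46, 8 were absent (17.4%, against 2.08% of strong peaks on all these chromosomes). The Hoxa cluster held 3 absent peaks, the Hoxb cluster 3, the Hoxd cluster 2 and the Hoxc cluster none among its 2 strong peaks. The strongest, at chr6:52172636-52172785 in an exon, had a signal of 120, 7880 bp from the TSS of Hoxa2 and nearest by TSS to 5730596B20Rik. In the Hoxb cluster the strongest had 101 and lay 6496 bp from Hoxb4.

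The clusters were not empty in replicate 2, which listed 468 peaks in them against 192 in replicate 1. Over all the chromosomes used, the counts were 447681 and 300618. Replicate 2 peaks in the Hoxa cluster numbered 121 with a median signal of 44, and those in the Hoxb cluster 143 with a median of 31. Replicate 2 thus listed more peaks than replicate 1 in the clusters as a whole. That none lay within 500 bp of these 8 strong peaks is the definition of an absent peak. Their gaps to the nearest replicate 2 peak ran from 610 to 3210 bp, with 670 bp at both in the Hoxd cluster. The Hoxb peaks with signals of 76 and 75 shared a replicate 1 hotspot of 699 bp. Neighbouring peaks in a cluster are not independent of each other.

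Absent peaks held E-boxes and SOX letters more often than strong shared peaks and all replicate 1 peaks outside promoters did. Outside promoters the CAGCTG form was in 17.4% of strong shared peaks and 11.8% of all replicate 1 peaks, and in 30.2% of absent peaks (194 of 642, 95% Wilson interval 26.8% to 33.9%). The CAGATG form was in 14.6%, 14.7% and 28.7%. Either form was in 29.3%, 24.5% and 50.6%. ACAATG, the SOX letters, was in 10.1%, 10.6% and 20.2%, and TAATTA, the homeodomain letters, in 2.44%, 4.73% and 7.17%. Only 6 of the 642 absent peaks were at promoters, so they are kept in these shares.

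CTCF and GC box letters were less frequent in absent peaks than in strong shared peaks outside promoters. The CTCF core AGNNGGCGC was in 13.2% of strong shared peaks outside promoters, 2.55% of all replicate 1 peaks outside promoters and 1.71% of absent peaks (11 of 642). The GC box was in 18.9%, 4.73% and 7.48%, so absent peaks lay above all replicate 1 peaks in that measure. The GATA letters AGATAAG were in 0.682%, 1.79% and 0.467%. A match to such short letters is a description of the sequence and not a bound site.

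Peaks of matched signal were compared as well. Among peaks of 71 to 90 outside promoters, either E-box was in 49.3% of 544 absent peaks and 29.4% of 9288 shared peaks. The SOX letters were in 20% and 9.54%, the homeodomain letters in 6.8% and 2.54% and the CTCF core in 1.29% and 14.7%. These gaps were near those without matching, whereas that of the GC box was smaller, at 6.99% against 13.4%. Median GC content in these sets was 51.3% and 54%. The sets were matched on the range of signal only. Of the absent peaks 98% lay over 2500 bp from a protein-coding TSS, against 85.3% of the shared ones. A CpG ratio of 0.6 or more was found in 6.99% and 19.6%. The part of position and base composition in these gaps was not tested.

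Edge peaks resembled absent peaks in these measures, although a replicate 2 peak lay within 500 bp of each. The CAGCTG form was in 30.6% of the 222 edge peaks, either E-box in 49.5%, the CTCF core in 1.8% and the SOX letters in 16.7%, with a median signal of 80 and a median GC content of 52.3%. Displaced peaks outside promoters were like strong shared peaks outside promoters in E-boxes, at 27.9% against 29.3%, and in SOX letters, at 11.2% against 10.1%. They held the CTCF core less often, at 4.44% against 13.2%. None of these differences was tested, because the classes rest on the same replicate 2 lists as the rule and peaks are not replicates.

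**Figure D5:**
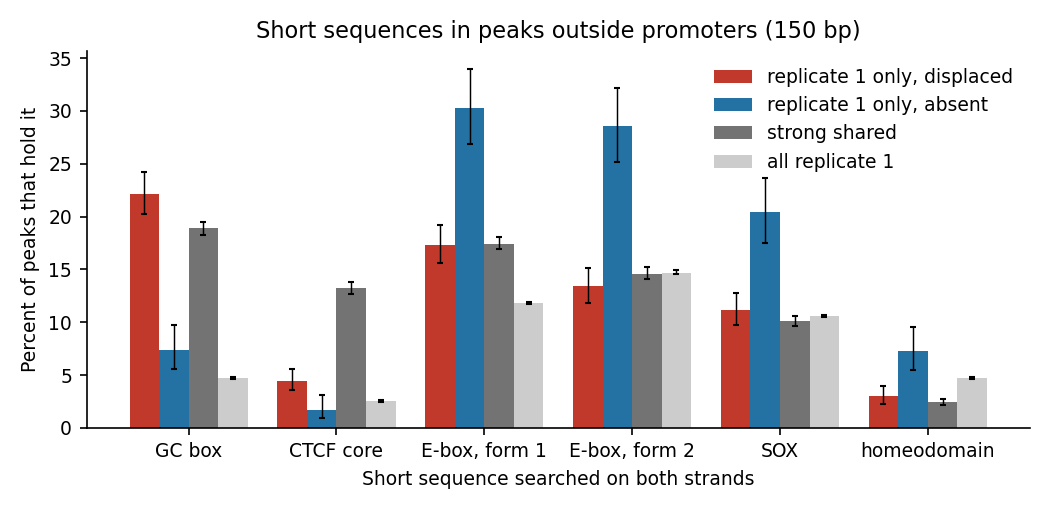
Percent of peaks outside promoters that hold each short sequence on either strand of their 150 bp, for displaced (red) and absent (blue) replicate-1-only peaks, strong shared peaks (dark grey) and all replicate 1 peaks (light grey), with 95% Wilson intervals as error bars, which cover counting error over peaks only; form 1 and form 2 are the CAGCTG and CAGATG E-boxes. The blue bars are the highest of the 4 for both E-boxes, SOX and homeodomain letters and the lowest for the CTCF core.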

How the data were processed

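The authors deposited a peak list and a hotspot list for each of 2 replicates on mm10, made from each replicate's own alignments, per the deposited file records. Which aligner and peak caller were used is not given in the sources used here. Peaks carry the signal the authors deposited, from 1 to 150 in replicate 1, with unstated normalization. Hotspots carry a q-value on the −log10 scale, as deposited, from 1.3 to a ceiling of 100.

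Repeated coordinates were counted once. Overlap needed 1 bp. TSSs, exons and introns came from GENCODE vM21 basic protein-coding transcripts, and sequence from RefSeq GRCm38.p6, whose chromosome lengths equal mm10. GC content, masked repeats and 16 short sequences were read over the 150 bp of each peak on both strands. The 13 gene lists, 301 genes, and the peaks described were chosen with earlier results of these data known. Named peaks were the 10 strongest, the 10 strongest absent, the 3 strongest in exons, introns and intergenic sequence, the 3 with the smallest and largest gaps, and up to 3 per gene list at a TSS; named too were the 5 genes nearest to the most peaks. Names outside this rule are identified in the text. Intervals are Wilson intervals at 95.0% confidence. Alternatives changed the signal threshold, the overlap rule, the promoter window and other settings. Interval code was tested on simulated data. Python 3.11.15, pandas 2.3.3, numpy 2.4.6, scipy 1.17.1, pysam 0.24.0 and matplotlib 3.10.9 were used.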

Additional observations from a re-analysis of the deposited data

Results flagged for a closer look

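Chromosome X lies outside the rule and entered no comparison, and the same measures were read there. Of its 552 strong replicate 1 peaks, 79 had no replicate 2 overlap (14.3%), and 1 of these was absent, with neither a replicate 2 hotspot nor a replicate 2 peak within 500 bp. Both values were picked out because they come from data outside the main measurement and are above 0.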

How the results depend on the processing

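Of 47 alternative values for 8 results, 10 stayed within 1.5 times the number of peaks or within the 95% interval of a share or median, and 37 moved. With a signal of 90 or more there were 1737 peaks, the median gap was 70 bp, 93.7% had a replicate 2 peak within 500 bp, 91% a hotspot and 55% a promoter position, 6.16% were absent, median GC was 60% and 33.9% held a GC box. With 50 or more these were 11405, 150 bp, 70.2%, 61.6%, 26.5%, 29.2%, 55.3% and 21.5%. Where only an overlap of at least 50% counted as shared they were 9134, 0 bp, 92.8%, 90.2%, 43.6%, 7.03%, 59.3% and 32.1%. Where a replicate 2 peak within 500 bp counted as shared, 660 peaks remained, with a median gap of 4580.0 bp, 2.73% in a hotspot, 1.36% at promoters, median GC of 52% and a GC box in 8.18%. In all 4 settings the values moved because other peaks were selected. The 150 bp and 1000 bp promoter windows gave promoter shares of 20.4% and 50.6%, and TSSs of all annotated genes gave 45.1%. A replicate 2 peak lay within 150 bp of 67.2% and within 1000 bp of 86.8%. GC over 500 bp had a median of 56%. The mirror rule, strong replicate 2 peaks (33 or more) without a replicate 1 overlap, gave 8532 of 45325 (18.8%). Letting only the stronger 50% of replicate 2 peaks remove a peak gave 4285.

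Neither replicate was left out in turn, since the rule needs both lists. No paired analysis was possible because there is 1 group. Read depth is unknown, and no detection limit can be given for peaks absent from the replicate 2 lists.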

Other observations

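By chromosome, the share of strong replicate 1 peaks without replicate 2 overlap ran from 11.9% to 15.7%, and the absent share from 1.19% to 2.81%. On sequences other than chromosomes 1 to 19 and X, 12 of 88 strong peaks had no overlap and 4 were absent. The 6 absent peaks at promoters were those of Lrrc43 (signal 85), Sgca (84), 4933407L21Rik (78), Hoxd8 (77), Mrps33 (75) and Sema3g (75).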
